A study of Homo sapiens with 6 samples.

Results

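The snoRNA host genes described here are 10 long noncoding RNA genes, GAS5, SNHG1, SNHG3, SNHG5, SNHG6, SNHG7, SNHG8, SNHG12, SNHG15 and SNHG16, chosen by symbol out of the 53719 rows of a gene count table. All 10 had a row, 9 had enough reads to be tested, and SNHG3 was listed at 0 in every library. The RNA came from 1 established line, H9 (human embryonic stem cells), grown in RSeT medium, which maintains a naive state. The knockdown group (3 libraries, a to c) had received a gapmer against ALR, the alpha satellite RNA transcribed from centromeric repeats, and the control group (3 libraries, a to c) a control gapmer, both for 48 h. Gapmers are antisense oligonucleotides whose central DNA stretch makes RNase H cut the RNA they pair with. Both groups share the cell line, the medium and the transfection. The series concerns ALR at the perinucleolar compartment and its effect on ribosomal RNA, and the comparison asks whether the host genes differed after the knockdown. ALR itself has no gene row used here, so the depth of the knockdown was not analysed here.

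Small nucleolar RNAs (snoRNAs) guide the chemical modification and processing of ribosomal RNA. Box C/D snoRNAs direct 2'-O-methylation and box H/ACA snoRNAs direct pseudouridylation, and in vertebrates most are cut from introns of host genes after splicing. In the noncoding hosts the introns carry the functional product, while the spliced exons are often short-lived because nonsense-mediated decay (NMD) removes them. Many hosts begin with a pyrimidine tract, the 5'TOP motif of ribosomal protein genes, which links their translation and turnover to mTOR signalling.

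The label was checked against the RefSeq gene table (GRCh38.p14). It places 36 snoRNAs within the spans of the 10 genes, 25 of them box C/D, 10 box H/ACA and 1 without a class in its name, and each of the 10 genes holds at least 1. GAS5 contains 11 (10 box C/D), SNHG1 9 (8 box C/D), SNHG12 4 (3 box H/ACA and 1 box C/D), SNHG16 3 and SNHG5 2 (all box C/D). SNHG3 and SNHG7 contain 2 each, all box H/ACA. The remaining hosts contain 1 each, which is box C/D in SNHG6 and box H/ACA in SNHG8 and SNHG15.

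The following 5 snoRNAs, 1 from each of 5 hosts, are shown because they are the products these introns carry. The sequences are those of GENCODE release 29 (GRCh38), written 5' to 3'. Capitals mark TGATGA (box C) within the first 20 bases and the last CTGA (box D) in the box C/D snoRNAs, and ACA near the 3' end in the box H/ACA snoRNAs.
SNORD27, in SNHG1: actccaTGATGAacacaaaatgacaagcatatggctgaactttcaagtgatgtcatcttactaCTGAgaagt
SNORD50B, in SNHG5: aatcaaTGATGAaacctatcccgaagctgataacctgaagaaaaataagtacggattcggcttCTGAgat
SNORD1B, in SNHG16: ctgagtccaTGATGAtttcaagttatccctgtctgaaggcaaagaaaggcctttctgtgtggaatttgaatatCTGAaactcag
SNORA24, in SNHG8: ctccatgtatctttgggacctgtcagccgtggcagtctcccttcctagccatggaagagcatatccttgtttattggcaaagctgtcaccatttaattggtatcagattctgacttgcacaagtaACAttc
SNORA9, in SNHG15: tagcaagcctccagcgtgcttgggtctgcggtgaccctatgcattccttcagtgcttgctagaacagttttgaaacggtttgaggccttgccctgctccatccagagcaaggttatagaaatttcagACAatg
Of the 20 host snoRNAs with a sequence that could be shown, 11 are box C/D, and CTGA was found near the end of all 11, whereas the exact TGATGA was found in 5. The ACA motif was found within the last 10 bases of 8 of the 9 box H/ACA sequences.

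RefSeq gives a start region for 8 of the hosts, GAS5, SNHG1, SNHG3, SNHG5, SNHG7, SNHG8, SNHG12 and SNHG16. SNHG6 and SNHG15 have no entry. The regions below run from 45 bases before the annotated start to 40 bases from it and are shown because transcription and the 5'TOP tract begin there. The 4 with a TATAA match are given first. Capitals mark TATAA (or TTATA, its reverse complement) and the longest unbroken run of C and T from 10 bases before the start onward.
SNHG5 (chr6:85678694-85678778, minus strand): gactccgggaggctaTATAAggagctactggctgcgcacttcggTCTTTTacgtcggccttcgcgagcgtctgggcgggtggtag
SNHG7 (chr9:136728145-136728229, minus strand): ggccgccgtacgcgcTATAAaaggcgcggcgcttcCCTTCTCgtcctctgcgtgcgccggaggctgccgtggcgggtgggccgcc
SNHG8 (chr4:118278717-118278801, plus strand): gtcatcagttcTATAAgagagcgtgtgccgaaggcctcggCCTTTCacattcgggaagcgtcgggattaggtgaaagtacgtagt
SNHG12 (chr1:28581834-28581918, minus strand): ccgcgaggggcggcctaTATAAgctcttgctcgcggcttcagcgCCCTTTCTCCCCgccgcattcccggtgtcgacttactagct
SNHG1 (chr11:62855846-62855930, minus strand): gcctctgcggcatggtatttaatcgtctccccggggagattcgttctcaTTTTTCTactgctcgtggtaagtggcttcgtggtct
SNHG16 (chr17:76557719-76557803, plus strand): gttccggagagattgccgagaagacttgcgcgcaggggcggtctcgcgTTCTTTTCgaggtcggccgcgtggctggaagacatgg
TATAA or TTATA occurred 45 to 16 bases before the start in 4 of the 8 hosts, SNHG5, SNHG7, SNHG8 and SNHG12, and in 5.04% of the 35116 start regions of the table. This motif was searched after the regions had been read, so the count is a description. The longest run of C and T was 12 bases in SNHG12, a length reached by 3.51% of all start regions. It was 8 in GAS5 and SNHG16 (18.05% of all regions), 7 in SNHG1 and SNHG7 (27.4%) and 6 in SNHG3, SNHG5 and SNHG8 (41.6%), against a median of 5 over all regions. The run can lie anywhere in its window, from 10 bases before the start to 40 bases from it. In SNHG7 it lies before the start and is cut by the window edge, since the C and T run goes on before the window and was not counted there. In GAS5 it lies near the far end of the window. A run is therefore not by itself a 5'TOP tract. A match is a description and not a working site, and annotated starts can lie away from the true start. RefSeq start regions and GENCODE 29 gene spans also differ for some hosts. The SNHG12 region (28581834 to 28581918) lies well inside its GENCODE span, which begins at 28583132 on the minus strand. The GAS5 region (173869006 to 173869090) lies outside its span, which begins at 173868882 on the minus strand. The runs and matches therefore hold for the RefSeq starts only.

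Total counts ran from 25087629 to 36576752 per library. Knockdown library a stood apart, with counts in 29678 rows against 25898 to 26788 in the other 5, and control library c had 1.76% mitochondrial counts against 2.41% to 2.63% in the others. By the quasi-likelihood test of edgeR, 155 of 19721 tested genes passed an adjusted p of 0.05 (0.786%), 27 higher (0.137%) and 128 lower (0.649%) in knockdown libraries. The 155 became 26 without control library a and 1309 without knockdown library c. The higher share was 17.4% here, 35.4% when scaled by library size alone, 28.7% with upper-quartile scaling and 37.9% without a low-count filter, and it was 3.85% without control library a (1 of 26) and 0% without control library b or c (0 of 42 each). Markers were those of pluripotent cells: the 7-gene pluripotency list (POU5F1, SOX2, NANOG, LIN28A, DPPA4, TDGF1 and SALL4) summed to 3733 to 4128 CPM (counts scaled to library size) in knockdown and 3641 to 3693 in control libraries, with SOX2 listed at 0. In the same order, naive markers summed to 69.0 to 75.7 and 67.4 to 72.5 CPM, and primed markers to 275 to 301 and 269 to 279 CPM, with THY1 listed at 0. The fibroblast list, for feeder cells, summed to 90.0 to 97.7 and 91.9 to 105 CPM, most of it COL1A2, and the 8-gene trophectoderm and amnion list to 2.27 to 2.75 and 2.16 to 2.95 CPM. Of these lists, the pluripotency sum did not overlap between the groups, and its part in the host gene values was not tested. The list did not move as one: LIN28A had 1757 CPM after knockdown and 1541 in controls and made up most of the gap, POU5F1 had 133 and 99.8, NANOG 194 and 181, and DPPA4 899 and 941 CPM. TDGF1 and SALL4 differed by less than 0.01 on the log2 scale, and 0 of the 6 tested genes passed the threshold (2 at an unadjusted p under 0.05). In bulk RNA, fewer cells of a type and less RNA per cell cannot be told apart. The labels do not say whether libraries a, b and c came from separate cultures, so p-values measure only the spread between these libraries, which may be technical.

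None of the 9 tested snoRNA host genes passed the threshold (0 of 9, against 0.786% of all tested genes), and their differences were small. The log2 fold changes, knockdown minus control, ran from -0.14 for SNHG1 to 0.14 for SNHG12, with a median of -0.04 over the 9 genes against 0.02 over all tested genes. By direction, 6 were below 0 and 3 above. An unadjusted p under 0.05 was reached by 1 of the 9, SNHG1, against 14.3% of all tested genes. SNHG1 was also the 1 host whose groups did not overlap (11.1% of the 9, against 18.9% of all tested genes, 9.55% higher and 9.37% lower in knockdown). DESeq2's Wald test and limma-voom called 0 of the 9 as well. The smallest absolute log2 fold change among the 155 genes past the threshold was 0.33, larger than that of any host, so these libraries gave no call for any gene at the sizes seen in the hosts. Every 95% interval lay between -0.31 and 0.31, which spans changes of -19.2% to 23.8%, so changes larger than that were outside all 9 intervals. The values below are CPM scaled by the TMM method, listed as knockdown libraries a, b and c and then control libraries a, b and c, and group values are means ± SD (n = 3).

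**Figure D1:**
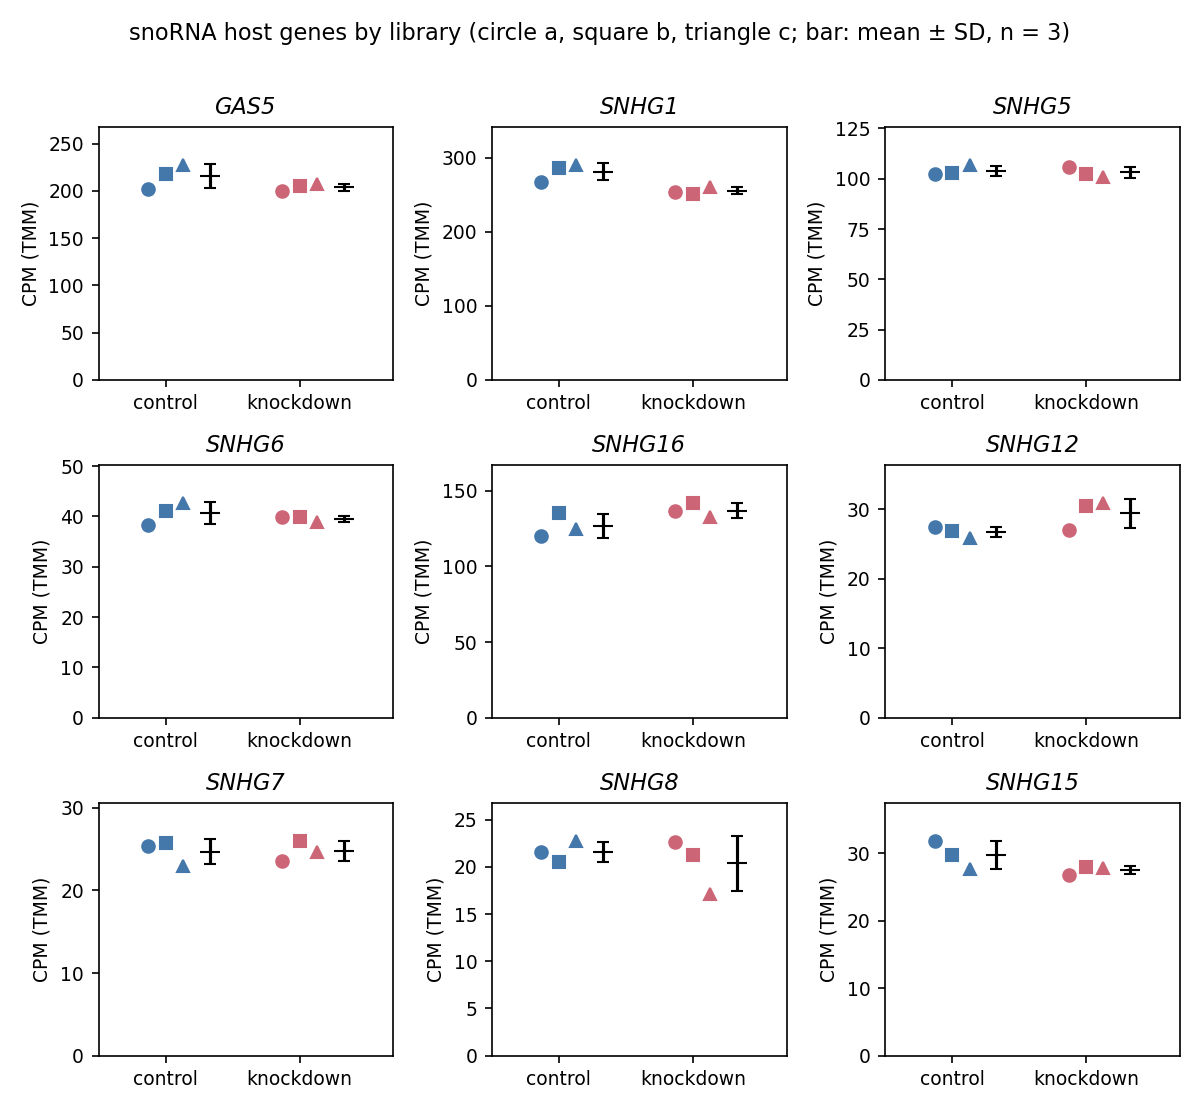
CPM (TMM-scaled, axes from 0) of the 9 tested host genes in each of the 3 control and 3 knockdown libraries (circle a, square b, triangle c), with the group mean ± SD beside the points. The points of the 2 groups overlap in every panel except SNHG1, where the knockdown libraries lie at 252 to 261 and the controls at 268 to 289.6.

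Among hosts of box C/D snoRNAs, SNHG1 had the most reads and the clearest separation. SNHG1 (ENSG00000255717.6; GRCh38 chromosome 11, 62851988 to 62855914, minus strand) is the host of SNORD22 and of SNORD25 to SNORD31, of which SNORD22 takes part in 18S rRNA processing. Its level was 253, 252 and 261 CPM after knockdown and 268, 286 and 289.6 CPM in controls. All 3 knockdown libraries lay below all 3 controls, although control library a was closer to the knockdown libraries than to control library c. The group levels were 255 ± 4.73 and 281 ± 11.8 CPM, and the log2 fold change was -0.14 with an SE of 0.06 (adjusted p = 0.339 by edgeR), or a change of -9.30% with a 95% interval of -17.5% to -0.240%. This difference did not hold up after adjustment over all genes. Over 17 alternative settings its log2 fold change stayed between -0.19 and -0.11, and the lowest adjusted p was 0.0894, without knockdown library c.

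GAS5 (ENSG00000234741.7; chromosome 1, 173863900 to 173868882, minus strand) was named for its rise in growth-arrested cells. Its level was 199.9, 205 and 207 CPM after knockdown and 202, 218 and 227 CPM in controls. Control library a lay among the knockdown libraries, so the groups overlapped. The group levels were 204 ± 3.64 and 216 ± 12.4 CPM, and the log2 fold change was -0.08 with an SE of 0.07 (adjusted p = 0.616 by edgeR; interval -0.22 to 0.06). Without control library c, the highest, it was -0.04.

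SNHG5 and SNHG6 lay closest to no difference among the box C/D hosts. SNHG5 (ENSG00000203875.11; chromosome 6, 85660950 to 85678748, minus strand), first known as U50HG, carries both copies of U50. Its level was 106, 102.54 and 101 CPM after knockdown and 102.58, 102.61 and 107 CPM in controls. Knockdown library a lay inside the control range, library c lay below it, and library b lay just below its lowest value. The log2 fold change was -0.01 with an SE of 0.06 (adjusted p = 0.952 by edgeR), and its interval, a change of -9.43% to 8.65%, was the narrowest of the 9. SNHG6 (ENSG00000245910.8; chromosome 8, 66921684 to 66926398, minus strand), the host of U87, had 39.9, 39.9 and 38.9 CPM after knockdown and 38.4, 41.1 and 42.6 CPM in controls. Control library a was the lowest of the 6 and control library c the highest, so the knockdown libraries lay within the control range. The log2 fold change was -0.04 with an SE of 0.07 (adjusted p = 0.830 by edgeR), and it was -0.0057 without control library c and -0.07 without control library a.

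SNHG16 (ENSG00000163597.14; chromosome 17, 76557766 to 76565348, plus strand), also called ncRAN and first described in neuroblastoma, carries 3 copies of SNORD1. Among hosts with box C/D snoRNAs, SNHG16 and SNHG12 had values above 0. SNHG16 had 137, 142 and 132 CPM after knockdown and 120.2, 135 and 125 CPM in controls. Knockdown libraries a and b lay above every control, while library c lay below control library b. The group levels were 137 ± 4.66 and 127 ± 7.76 CPM, and the log2 fold change was 0.11 with an SE of 0.07 (adjusted p = 0.490 by edgeR; a change of 7.95%, interval -2.44% to 19.4%).

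SNHG12 (ENSG00000197989.14; chromosome 1, 28578538 to 28583132, minus strand) carries 3 box H/ACA snoRNAs and 1 box C/D snoRNA. It had 27.0, 30.4 and 30.9 CPM after knockdown and 27.4, 26.9 and 25.9 CPM in controls. Knockdown libraries b and c lay above every control, and knockdown library a lay inside the control range. The group levels were 29.4 ± 2.10 and 26.7 ± 0.782 CPM, and the log2 fold change was 0.14 with an SE of 0.08 (adjusted p = 0.442 by edgeR; a change of 10.2%, interval -1.93% to 23.8%). Without knockdown library a, the library that stood apart, the value was 0.20 (edgeR adjusted p = 0.336), without knockdown library c it was 0.09, and over the 17 alternatives it ran from 0.09 to 0.20.

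The tested hosts of box H/ACA snoRNAs alone were SNHG7, SNHG15 and SNHG8. SNHG7 (ENSG00000233016.6; chromosome 9, 136721366 to 136728184, minus strand), which carries both copies of SNORA17, had 23.5, 25.9 and 24.7 CPM after knockdown and 25.3, 25.7 and 23.0 CPM in controls. The group means were nearly equal, 24.7 ± 1.22 and 24.7 ± 1.48 CPM, and the log2 fold change was 0.0037 with an SE of 0.08 (adjusted p = 0.990 by edgeR; interval -0.17 to 0.18).

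SNHG15 (ENSG00000232956.8; chromosome 7, 44983023 to 44986961, minus strand), the host of SNORA9, is known as a short-lived RNA that accumulates under stress. Its level was 26.8, 27.9 and 27.8 CPM after knockdown and 31.8, 29.8 and 27.7 CPM in controls. Control library c lay within the knockdown range, and the other two controls lay above it. The group levels were 27.5 ± 0.607 and 29.8 ± 2.04 CPM, and the log2 fold change was -0.11 with an SE of 0.08 (adjusted p = 0.544 by edgeR; a change of -7.402%, interval -17.4% to 3.81%). Without control library a, the highest of the 6, the log2 fold change was -0.05.

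SNHG8 (ENSG00000269893.6; chromosome 4, 118278709 to 118279823, plus strand), the host of SNORA24, had 22.7, 21.3 and 17.1 CPM after knockdown and 21.5, 20.5 and 22.7 CPM in controls. Knockdown library c alone lay below the control range. The log2 fold change was -0.08 with an SE of 0.10 (adjusted p = 0.763 by edgeR), and it was 0.0034 without knockdown library c and -0.17 without knockdown library a. SNHG8 had the widest interval, -0.31 to 0.14, and the largest coefficient of variation (SD over mean) in either group, 14.1% in knockdown libraries. Counting error for SNHG8 was 3.48% to 4.81% per library, which is smaller than that spread. The smallest coefficient of variation in either group was 1.44%, for SNHG6 in knockdown libraries, below its counting error of 2.54% to 3.19%.

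SNHG3 (ENSG00000242125.3; chromosome 1, 28505980 to 28510892, plus strand) is the host of both copies of U17 (SNORA73A and SNORA73B), a snoRNA that takes part in 18S rRNA processing. The table listed SNHG3 at 0 in all 6 libraries. In GENCODE 29, 5.92% of its exon bases also belong to exons of RCC1 on the same strand, and the RCC1 row held 3074 to 3934 counts. RPL32 and EIF4A1, genes that every cell uses and snoRNA hosts themselves, were also listed at 0, so no statement on SNHG3 expression is made. A limit of 3 counts would be 0.0820 to 0.120 CPM, and it covers counting error only, not reads that were left unassigned.

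**Figure D2:**
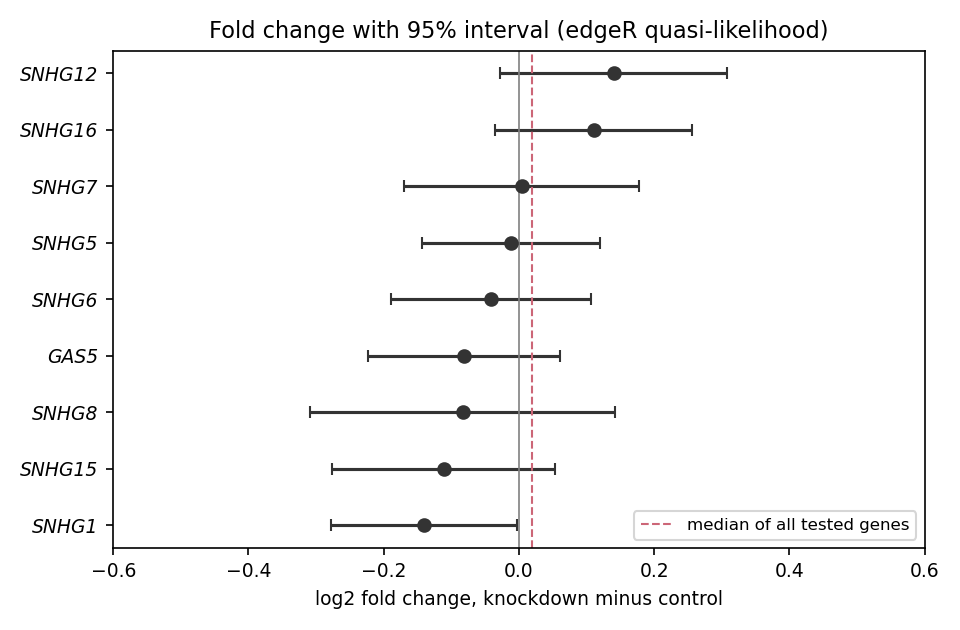
Log2 fold change (knockdown minus control, x axis) of the 9 tested host genes with 95% intervals from edgeR's quasi-likelihood fit, and the median of all tested genes (0.02) as a dashed line. SNHG1 at -0.14 has the only interval that leaves out 0, and no gene passes the adjusted threshold.

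Summed over the 10 genes, the hosts took 0.0838% to 0.0858% of all counts in knockdown and 0.0826% to 0.0884% in control libraries. The means were 0.0848 ± 0.00101% and 0.0862 ± 0.00320%, and on this scale the knockdown libraries lay within the control range. Scaled by TMM, the hosts summed to 836, 847 and 840 CPM in knockdown libraries a, b and c. Controls a, b and c had 837, 886 and 890 CPM, so knockdown library a lay just below every control. The means on that scale were 841 ± 5.55 and 871 ± 29.3 CPM. GAS5 and SNHG1 together held 54.0% to 55.6% of the host counts in knockdown and 56.1% to 58.1% in control libraries. These ranges do not overlap, but the share includes SNHG1, whose own groups did not overlap. Among all tested genes, 18.9% had groups that did not overlap. No test was made on these sums, because the members were chosen together.

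Levels between hosts were compared per kilobase of exon, with all exons that GENCODE 29 gives a gene merged, retained introns included. In control libraries SNHG1 was highest at 74.9 ± 3.13 CPM per kb, followed by GAS5 at 59.4 ± 3.43, SNHG5 at 37.04 ± 0.831, SNHG6 at 32.6 ± 1.72, SNHG16 at 23.6 ± 1.45 and SNHG8 at 23.4 ± 1.17 CPM per kb. The lowest were SNHG15 at 8.16 ± 0.559, SNHG12 at 6.27 ± 0.183 and SNHG7 at 5.68 ± 0.342 CPM per kb. Over all 6 libraries each neighbour in this order was separate from the next, except SNHG16 and SNHG8, whose ranges of 22.4 to 26.4 and 18.6 to 24.6 CPM per kb overlapped. Among all tested genes, by CPM without length scaling, the hosts ranged from the 58.4th percentile (SNHG8) to the 96.8th (SNHG1). The order rests on the exon lengths of this annotation, since the one the authors counted with is not given in the sources used here.

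**Figure D3:**
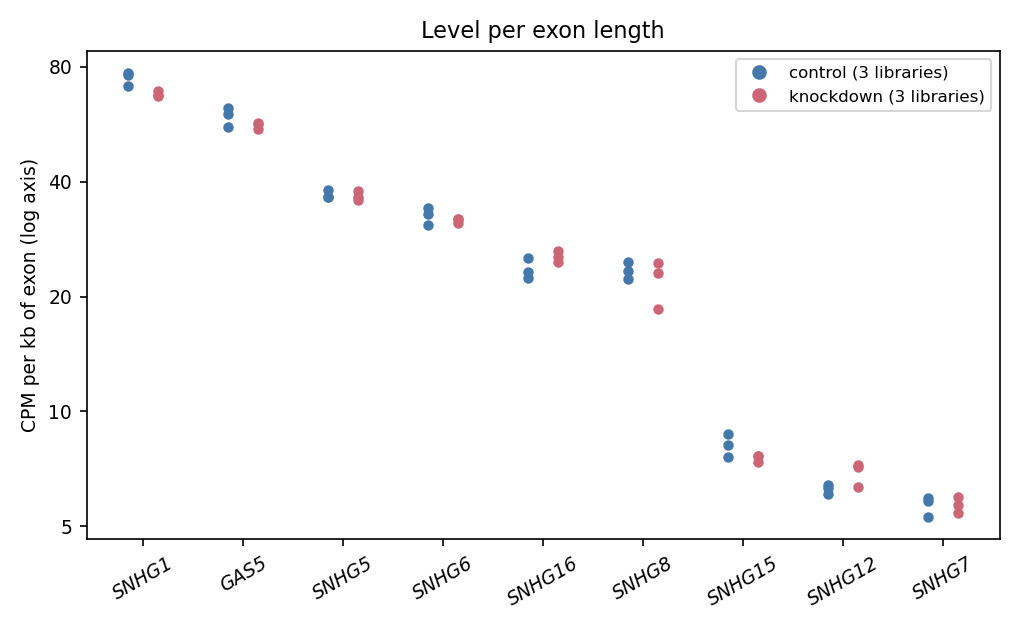
Level of the 9 tested host genes in CPM per kb of merged exon (log axis), 1 point per library for 3 control and 3 knockdown libraries. SNHG1 (67.0 to 77.1) and GAS5 (55.0 to 62.5) lead, and SNHG16 and SNHG8 are the only neighbours that overlap.

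Some host reads cannot be assigned with certainty. Exons on the opposite strand share 30.6% of the exon bases of SNHG16, 29.3% of SNHG6 (with MCMDC2) and 25.2% of SNHG7 (with FAM69B), and the strand setting used in counting is not given in the sources used here. MCMDC2 and FAM69B did not pass the threshold either: MCMDC2 had 3.55 ± 0.337 CPM after knockdown and 3.498 ± 0.279 in control libraries (edgeR adjusted p = 0.966), and FAM69B 24.8 ± 3.74 and 23.5 ± 2.53 CPM (edgeR adjusted p = 0.805). GAS5 and SNHG12 share 1.16% and 0.188% of their exon bases with a gene on the other strand, and SNHG1, SNHG5, SNHG8 and SNHG15 share none.

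The snoRNAs themselves were barely counted. Of the 36 snoRNAs inside the hosts, 34 had a row by symbol or older symbol. The row named SNORD75 held 14 to 36 counts per library, but it stands in the table among 37 annotated rows that are all on chromosome 2, whereas RefSeq places SNORD75 in GAS5 on chromosome 1, so it was not used. Of the other 33 rows, 28 were at 0 in all 6 libraries and 5 had a count, at most 6 in a library (SNORD27, in control library b). SNORA17B of SNHG7, listed as SNORA43, had 1, 3 and 1 counts after knockdown and 2, 2 and 5 in controls. In GENCODE 29, 31 of the 36 lie at least partly in annotated exons of their host. The snoRNAs are 60 to 207 bases long, and the labels describe column extraction and bead size selection. The part of either in the low counts was not tested, and snoRNA levels were not compared.

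Other genes of the pathway, from lists chosen with earlier results of these data known, gave 0 genes past the threshold in any list. For each list edgeR called 0 genes, and the counts at an unadjusted p under 0.05 are given beside the medians, to be read against 14.3% of all tested genes and a median of 0.02. The groups did not overlap for 2 of 9 other noncoding hosts, 2 of 34 protein-coding hosts and 5 of 20 snoRNA-binding or assembly proteins. The same held for 1 of 17 NMD factors and 3 of 16 regulators of 5'TOP RNAs and mTOR, against 18.9% of all tested genes. Where 2 levels are given for a gene, the knockdown mean ± SD stands before the control mean ± SD (n = 3).

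The other noncoding hosts held 12 genes with a row and 9 tested, with a median log2 fold change of -0.0047, 4 above 0 and 5 below, and 1 at an unadjusted p under 0.05. ZFAS1, host of the SNORD12 family, had 309.7, 314 and 359 CPM after knockdown and 354, 364 and 389 CPM in controls, and the log2 fold change was -0.17 with an SE of 0.08 (adjusted p = 0.328 by edgeR). SNHG14, the imprinted transcript that carries the SNORD116 and SNORD115 clusters, had 3309.9 ± 124 and 3579.5 ± 139.9 CPM without overlap, and the log2 fold change was -0.11 with an SE of 0.07 (adjusted p = 0.471 by edgeR). SNHG20 and EPB41L4A-AS1 were listed at 0. SNHG29, another well-expressed host, had 164.6 ± 8.28 and 165.2 ± 2.80 CPM.

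Protein-coding hosts, mostly ribosomal protein and translation genes whose introns carry snoRNAs, had 34 tested genes, with a median of 0.03, 22 above 0 and 12 below, and 1 at an unadjusted p under 0.05. That gene, RPL21, a large-subunit ribosomal protein with many processed copies that make its counts uncertain, had 130.4 ± 12.1 and 149.6 ± 3.06 CPM, and the log2 fold change was -0.20 with an SE of 0.07 (adjusted p = 0.258 by edgeR). NCL, which encodes nucleolin, had 1116 ± 104 and 1017 ± 22.4 CPM, and the log2 fold change was 0.13 with an SE of 0.08 (adjusted p = 0.460 by edgeR).

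The proteins that bind or assemble snoRNAs had 20 tested genes, with a median of 0.03, 13 above 0 and 7 below, and 3 at an unadjusted p under 0.05. RUVBL1, an ATPase of the R2TP assembly chaperone, had 118 ± 3.64 and 104.5 ± 4.10 CPM, and the log2 fold change was 0.17 with an SE of 0.06 (adjusted p = 0.2501 by edgeR). PIH1D1, another R2TP subunit, had 38.96 ± 1.42 and 33.5 ± 3.38 CPM, and the log2 fold change was 0.22 with an SE of 0.08 (adjusted p = 0.253 by edgeR).

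NMD factors had 17 tested genes, with a median of 0.0028, 9 above 0 and 8 below, and 0 at an unadjusted p under 0.05. NBAS, which takes part in NMD and in vesicle transport, had 124 ± 9.28 and 137.5 ± 4.02 CPM (log2 fold change -0.15 ± 0.07, SE; edgeR adjusted p = 0.352). EIF4A3, the helicase core of the exon junction complex, had 97.5 ± 10.1 and 88.8 ± 4.96 CPM (log2 fold change 0.14 ± 0.08, SE; edgeR adjusted p = 0.476).

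Regulators of 5'TOP RNAs and mTOR had 16 tested genes, with a median of 0.01, 8 above 0 and 8 below, and 3 at an unadjusted p under 0.05. RHEB, the small GTPase that activates mTORC1, had 94.2, 97.3 and 98.4 CPM after knockdown and 109, 111 and 115 CPM in controls, with no overlap. Its log2 fold change was -0.21 with an SE of 0.06 (adjusted p = 0.143 by edgeR). LARP1B, a relative of the TOP-binding protein LARP1, had 115 ± 6.96 and 132 ± 1.40 CPM, and the log2 fold change was -0.20 with an SE of 0.07 (adjusted p = 0.196 by edgeR). These differences did not pass the threshold over all genes.

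**Figure D4:**
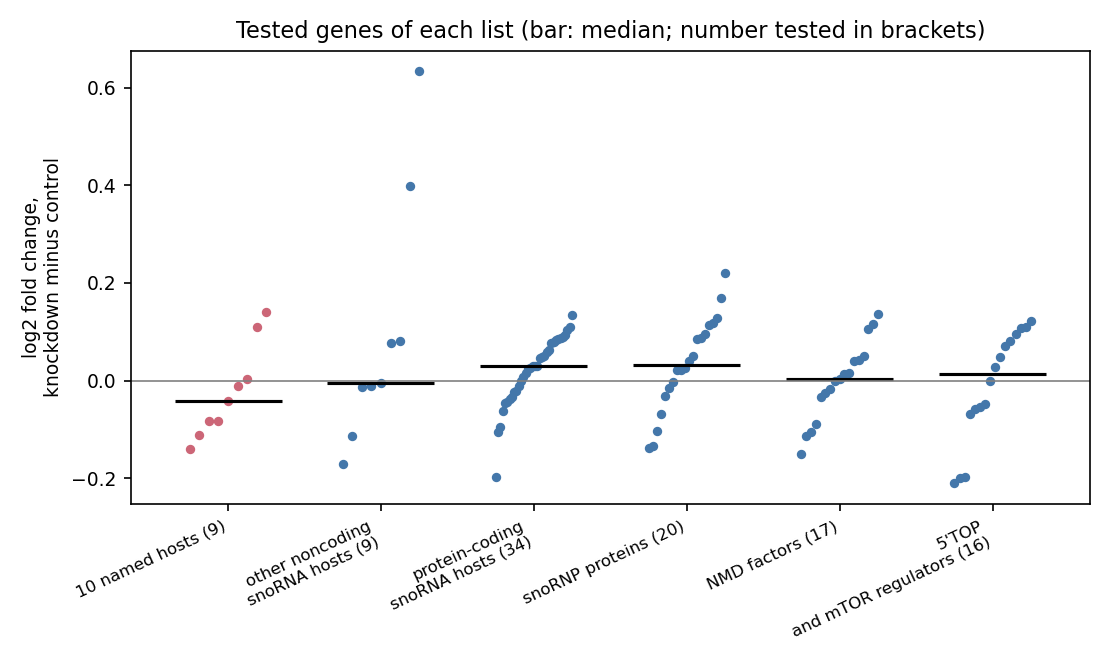
Log2 fold change (knockdown minus control, y axis) of each tested gene in the 10 named hosts (9 tested) and in 5 lists of related genes, with the list median as a bar. Medians lie between -0.04 (named hosts) and 0.03, and the highest points, among other noncoding hosts, are the thinly covered SNHG28 (listed as C1orf204, 0.63) and SNHG9 (0.40).

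Genes whose pattern over the 6 libraries was most like the mean standardized log2 CPM of the 9 hosts were WRB (Pearson r = 0.997), TMEM209 (0.994), UHRF1BP1L (0.993), OTUD6B (0.991) and KAT6A (0.991). They are the highest of 8986 genes with a mean count of at least 500. All rest on the same 6 libraries and their depth, so the values are a description.

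**Figure D5:**
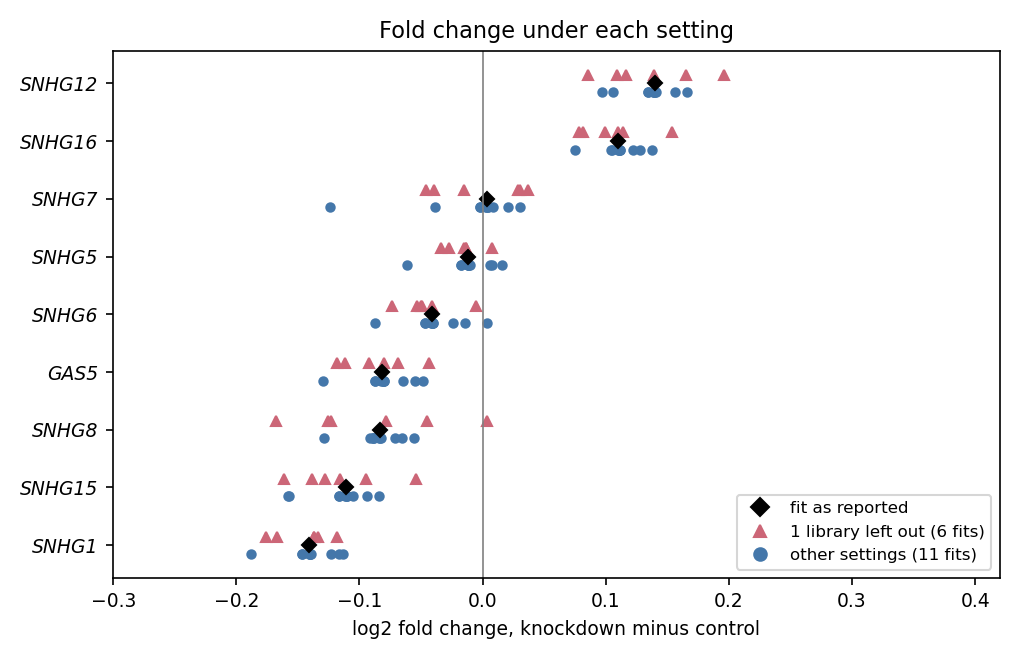
Log2 fold change (knockdown minus control, x axis) of each tested host in the fit as reported (diamond), in 6 fits that leave out 1 library (triangles) and in 11 fits with another scaling, test, filter or correction (circles). SNHG1, GAS5 and SNHG15 stay below 0 and SNHG12 and SNHG16 above 0 throughout, while SNHG5, SNHG6, SNHG7 and SNHG8 cross 0 in at least 1 fit.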

How the data were processed

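Total RNA of 6 H9 libraries was sequenced from libraries made, per the labels' protocols, with a directional NEBNext kit. The authors deposited raw read counts per gene symbol, whole numbers that were not normalized. Trimmomatic 0.39, STAR 2.7.8a, featureCounts, Subread 2.14.2 and the build hg38 are named in the submitters' processing notes. The annotation, the strand setting and the handling of reads that fit several genes or places are not given in the sources used here. Of the 53719 rows, 32830 had a GENCODE 29 gene, 31425 through the symbol and 1405 through an older RefSeq symbol.

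Counts were tested with edgeR 4.0.16 (R 4.3.3): filterByExpr, TMM scaling, glmQLFit and glmQLFTest with group as the only term, two-sided, Benjamini-Hochberg adjustment over all 19721 tested genes, threshold 0.05. CPM values use TMM-scaled library sizes except for sums over lists and host shares, which use total counts unless TMM is named. SE and 95% intervals come from the quasi-likelihood fit. Alternatives used DESeq2 1.42.0, limma 3.58.1 (voom), other scalings and filters, splines with 5 degrees of freedom on exon length or GC content, the replicate letter as a block, and each library left out. The hosts and the gene lists were chosen with earlier results of these data known. All 10 hosts are named, and from each list, as none passed, the 2 genes with the smallest p. SNHG3, without counts, was not tested, and SNHG28, SNHG9, SNHG29 and the genes listed at 0 are named outside this rule, after their values were seen. The fit was tested on simulated data with known changes before use.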

Additional observations from a re-analysis of the deposited data

How the results depend on the processing

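With all 17 alternatives, 0 host genes passed the threshold. The median of the 9 tested hosts was -0.088 with the exon length trend removed, against -0.04, and ran from -0.054 to -0.014 in the other 16 (-0.014 with library size alone, -0.015 without knockdown library c). The number of all genes past the threshold, 155, was 536 with DESeq2's Wald test, 1064 without a low-count filter, 282 with the exon length trend removed, 236 with the GC trend removed and 26 to 1309 when a library was left out (102, 61 and 1309 without knockdown library a, b or c, and 26, 42 and 42 without control library a, b or c). With the replicate block it was 393, and the block called 0 hosts. Between the libraries of each letter, deviations from the group mean correlated at 1.23e-05 for a, 0.116 for b and -0.0251 for c. These values do not settle whether a letter marks a shared culture or day, which the labels do not say.

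Among the hosts, the sign changed for SNHG5, SNHG6, SNHG7 and SNHG8. Without a sign change, GAS5 was -0.04 without control library c, SNHG15 -0.05 without control library a, SNHG6 -0.0057 and -0.07 without control library c and a, and SNHG12 0.09 without knockdown library c. SNHG5 was 0.016 with library size alone, 0.0062 with upper-quartile scaling, 0.0077 with the GC trend removed and between -0.034 and 0.0077 when a library was left out. SNHG6 was 0.0035 with the GC trend removed. SNHG7 was -0.0021 with DESeq2 size factors and with DESeq2's Wald test, -0.039 with the exon length trend removed, -0.12 with the GC trend removed and between -0.046 and 0.037 when a library was left out. SNHG8 ran from -0.17 (without knockdown library a) to 0.0034 (without knockdown library c). The cause of these shifts was not tested. Hosts had 433 to 10522 counts per library. Counting error was below the coefficient of variation of both groups for GAS5, SNHG1, SNHG5, SNHG7, SNHG8 and SNHG16, and above that of 1 group for SNHG6, SNHG12 and SNHG15.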

Other observations

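The U3 snoRNA genes, which are transcribed from their own promoters and take part in the first cleavages of the rRNA precursor, had 4 rows with counts and were chosen after their values were seen. Scaled by total counts, together they held 177 CPM in knockdown library a, 353 in b and 418 in c, and 327, 268.5 and 356 CPM in controls a, b and c. Knockdown library a was the lowest of the 6 and knockdown library c the highest. Scaled by TMM, SNORD3A, the row with the most counts, had 167 ± 63.0 CPM after knockdown and 181 ± 34.2 CPM in controls (SD, n = 3), and the log2 fold change was -0.12 with an SE of 0.22 (adjusted p = 0.854 by edgeR). The split between copies varied between libraries, with 82.3 CPM in the SNORD3B-2 row of control library a and 30.97 and 39.9 CPM in controls b and c. The U3 copies are near-identical, so how reads were divided between the rows is uncertain.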
